A study of Danio rerio with 6 samples.

Results

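The broad H3K27ac peaks of a primary zebrafish melanoma were the 1620 peaks of its deposited list that spanned 800 bases or more. They were 2.71% of the 59760 tumor peaks and held 9.37% of all tumor peak bases, 1.69 of 18.0 Mb. The other 58140 tumor peaks, all narrower than 800 bases, served for comparison. The broad peaks were chosen by their width in this library alone, so width is given as a description and not as a result. Fold enrichment, q-value and summit come from the same library as the width and are likewise described without a test.

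The series comprised 6 ChIP-seq libraries from zebrafish, with 1 library per group. H3K27ac was measured in the tumor, and H3K27ac and sox10 were measured in the melanoma cell line zcrest. The remaining 3 libraries were inputs and were not used here as separate data. The tumor arose in a p53/BRAF/Na fish that had received the plasmid MiniCoopR;mitf:EGFP as a control, where MiniCoopR is a vector that carries a mitfa minigene. It was dissected in bulk, cut with a razor blade and trypsinized before crosslinking, so any other cell types in the piece were assayed with the melanoma cells. The zcrest line, kept for more than 20 passages, came from a p53/BRAF/Na; crestin:EGFP founder that carried MiniCoopR alone. Both sources therefore share p53/BRAF/Na and MiniCoopR, and differ in fish, reporter and culture, which cannot be told apart here. With 1 library per group there is no replicate check, and read depth is unknown from these files. All positions are on the Zv9 assembly, counted from 1. No gene annotation of Zv9 was used here, so no gene is named and the tumor label was not checked against marker genes.

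Acetylation of histone H3 at lysine 27 is placed by the coactivators p300 and CBP and marks nucleosomes at active promoters and enhancers. The acetylated nucleosomes usually flank a nucleosome-poor stretch, at which transcription factors bind. Wide or clustered stretches of the mark are known from genes that define a cell's identity. A peak caller joins enriched bases into 1 interval and reports as the summit the base with the highest pile-up, so an interval can cover nucleosomes on either side of such a stretch.

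The widths formed a single falling distribution, and the limit of 800 bases lay in its tail. The broad peaks had a median width of 954 bases and an interquartile range of 862 to 1130 bases, against a median of 235 bases in the narrower peaks. Of them, 950 were under 1000 bases, 380 were from 1000 to 1199 bases, 220 from 1200 to 1599 bases and 70 were 1600 bases or wider. The plot of widths shows no gap at 800 bases. The 86 peaks just inside the limit, of 800 to 809 bases, had a median fold enrichment of 8.73. The 86 peaks just outside it, of 790 to 799 bases, had a median of 9.23. A line H3K27ac peak lay on 72 of the former and on 70 of the latter. The median distance of the summit from the centre was 36.4% of the way to the edge inside the limit and 45.8% outside it. None of these values marks the limit as a natural boundary.

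**Figure D1:**
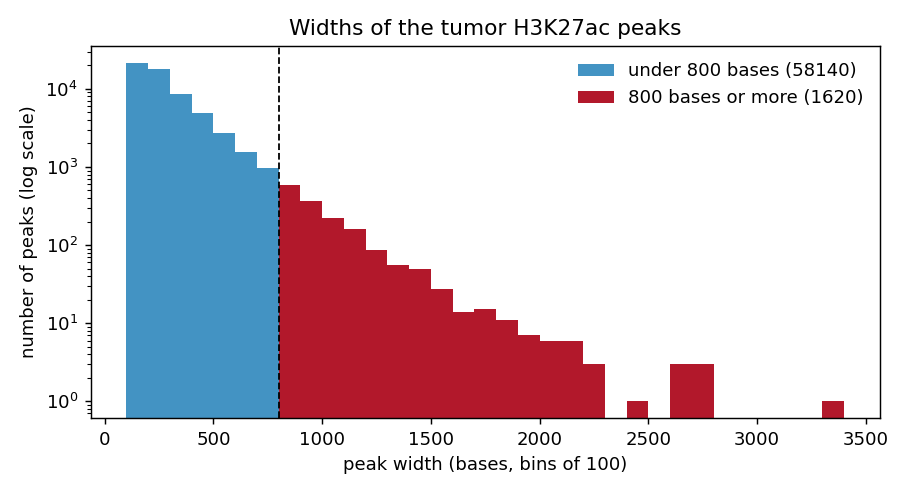
Number of tumor H3K27ac peaks (log scale) by width in bins of 100 bases, with the 1620 peaks of 800 bases or more in red and the 58140 narrower peaks in blue. The counts fall without a gap across the dashed line at 800 bases, out to a single peak of 3337 bases.

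The broad peaks were also stronger in the caller's measures. Fold enrichment here is the authors' ratio at the summit over the caller's own background. Its median was 9.02 in the broad peaks, with an interquartile range of 6.71 to 12.1, and 5.47 in the narrower ones. The median −log10 q was 38.7 against 9.19. The lowest fold among the broad peaks was 2.60 and the highest 33.0, while the highest of the whole list, 36.8, belonged to a narrower peak. Within the broad peaks, width and fold were almost unrelated, with a Spearman correlation of 0.06 across the 1620 peaks. For width and −log10 q in the same peaks it was 0.21. Across all 59760 tumor peaks the correlation of width and fold was 0.39. These correlations are across regions of 1 library, and regions are not replicates.

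The 10 widest broad peaks and the 10 with the highest fold had 0 regions in common. Lists this short, out of 1620 peaks, would seldom share a member even if width and fold were unrelated. The widest peak covered 3337 bases at chr9:8492509-8495845, with a fold of 11.04. Its summit was base 3075 from the left edge, close to the right end, and 3 line peaks covered 92.3% of it. The next 9 spanned 2222 to 2784 bases. Those at chr12:28420500-28423235 and chr19:29272353-29275063 were nearly filled by line H3K27ac, at 96.6% and 95.4% of their bases. A second chromosome 12 region, chr12:3338719-3341347, was the opposite case, with 1 line peak over 8.56% of it and none at its summit. The region at chr20:9736931-9739714 had 3 line peaks over 35.0% of its bases, and its summit too lay outside them. The remaining 5 lay at chr10:206525-209170, chr14:3025384-3027990, chr18:49641949-49644387, chr21:9325617-9327880 and chr4:21406121-21408342. All 10 touched a line peak, and 8 had the summit inside one. Among all broad peaks the shares were 87.5% and 76.5%. Their folds ran from 4.99 to 11.04, with a median of 8.07, below that of all broad peaks.

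The 10 broad peaks with the highest fold, from 25.2 to 33.0, were 868 to 1403 bases wide. This is close to the usual range of the broad peaks, whose 10th and 90th percentiles of width were 820 and 1368.5 bases. The highest lay at chr14:9593368-9594549 (33.0-fold, 1182 bases), and 1 line peak covered 97.6% of it. The second, at chr12:36435275-36436677, had a fold of 30.5 and the highest −log10 q of the tumor list, 140. Ranks 3 to 6 lay at chr24:7761011-7761984, chr8:8103578-8104471, chr4:21411178-21412391 and chr7:25278680-25279593. The other 4 were at chr15:28488983-28489850, chr11:41679853-41680756, chr12:18100306-18101467 and chr21:42197515-42198402. In all 10 the summit lay inside a line H3K27ac peak. At folds of 20 and above this held for 93.6% of broad and 94.7% of narrower tumor peaks, so it is not particular to these 10. The chromosome 15 region was wholly covered, and the lowest cover was 61.2%, in the chromosome 12 region starting at 18100306.

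Summits were spread across the broad peaks and were not concentrated at their centres. The distance of the summit from the centre is given as a percentage of the distance from the centre to the edge. Its median was 41.4% in the broad peaks (95% order-statistic interval 39.4% to 43.1%) and 22.8% in the narrower ones (22.6% to 23.1%). In the middle 20% of the width lay 403 of 1620 broad summits (24.9%) and 45.2% of the narrower ones. In the outer 20% on either side lay 425 broad summits (26.2%), against 7.04%. The share left of the centre was 51.7% in both groups. Its interval was 49.3% to 54.2% in the broad peaks and 51.3% to 52.1% in the narrower ones.

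The spread stopped short of the edges, where summits were rare in the narrower peaks too. Of the broad summits, 28 (1.73%) fell into the first or the last of 10 equal bins along the peak. For the narrower peaks it was 707 (1.22%), and for all tumor peaks 735 (1.23%). The other bins held 10.9% to 13.3% of the broad summits each. In bases, the closest summit lay 59 bases from an edge and the median distance to the nearer edge was 296 bases, against 95 in the narrower peaks. The wider spread was not a step at the limit. The median distance from the centre was 26.6% in the narrowest peaks, of 147 to 199 bases, and 11.1% in those of 200 to 299 bases. Above that it was 27.2% at 300 to 399 bases, 36.7% at 400 to 499, 38.6% at 500 to 599 and 39.6% at 600 to 799. Within the broad peaks it did not climb steadily, with 42.6% at 800 to 999 bases, 39.2% at 1000 to 1199 and 39.4% at 1200 to 1599. In the 70 peaks of 1600 bases or more it was 50.2%. The median distance was higher in the broad peaks than in the narrower ones in each of 8 classes of fold enrichment. The medians ran from 37.9% to 46.2%, against 17.9% to 30.1% in narrower peaks of the same classes. These classes did not match width, with median widths of 946 and 202 bases at folds of 4 to 6. The summit's relative distance changed with width, by which the groups were chosen. How far width alone sets the contrast was not tested.

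**Figure D2:**
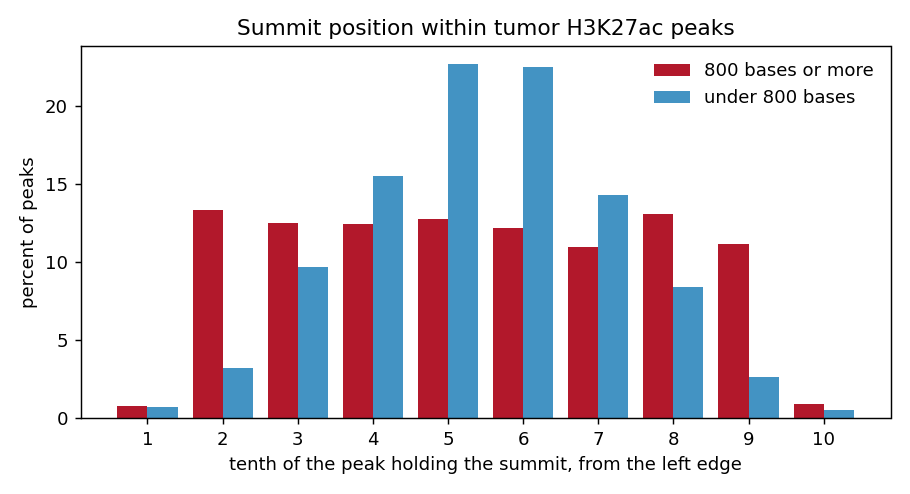
Percent of peaks (vertical axis) with the summit in each of 10 equal bins from the left to the right edge of the peak, for tumor peaks of 800 bases or more (red) and narrower ones (blue). Broad peaks fill the 8 inner bins evenly, at 10.9% to 13.3% each, whereas the narrower peaks pile up in bins 5 and 6 (22.7% and 22.5%).

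The list of the zcrest line was not used to choose the broad peaks and gives a separate readout. Of the 1620 broad peaks, 1418 shared at least 1 base with a line H3K27ac peak. That is 87.5% (exact 95% interval 85.8% to 89.1%), where 39.8% of all tumor peaks did and 38.5% of the narrower ones (38.1% to 38.9%). These are Clopper-Pearson intervals for counting error alone, and they treat neighbouring peaks as if they were independent. A wider interval also meets more peaks by its width alone. A window of 200 bases centred on the summit was therefore used as well, since it has the same length for every peak. By this window 82.3% of the broad peaks were on line H3K27ac (80.3% to 84.1%), against 37.2% of the narrower ones and 38.4% of all. The summit base itself lay inside a line peak in 1240 broad peaks (76.5%), against 30.6% and a background of 31.8%. The gap between the groups was therefore 45.1 percentage points by the window and 46.0 by the summit base, where it was 49.0 by 1 shared base.

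Sharing with the line rose with width over the whole tumor list and, by the summit window, flattened within the broad peaks. By the summit window it was 23.4% at 147 to 199 bases, 57.4% at 400 to 499 bases and 71.3% at 600 to 799 bases. Among the broad peaks it was 80.9% at 800 to 999 bases, 83.9% at 1000 to 1199, 85.0% at 1200 to 1599 and 82.9% (58 of 70) at 1600 or more. The intervals of the last 4 classes overlapped one another. By the summit base the shares in these 4 classes were 75.2%, 76.1%, 82.7% and 78.6%. Differences among the classes were not tested.

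Fold enrichment also differs between the groups, and the gap was present within most classes of fold. Between folds of 4 and 6, the window of 150 of 235 broad peaks met line H3K27ac (63.8%, 57.3% to 70.0%), against 28.3% of narrower peaks of the same fold. Between 8 and 10 the shares were 82.9% and 60.3%, and between 15 and 20 they were 97.1% and 87.4%. In 7 of 8 fold classes the broad peaks had the higher share, with intervals that did not overlap. The exception was the class of 20 and above, with 45 of 47 broad peaks (95.7%, 85.5% to 99.5%) and 97.2% of narrower ones. Below a fold of 4 only 50 broad peaks were found. Of their windows 24 (48.0%, 33.7% to 62.6%) met a line peak, against 16.9% of 12485 narrower peaks. These classes did not match width, with median widths of 946 and 202 bases at folds of 4 to 6. They were not matched for q-value either. By 1 shared base, the gap was 31.1 points among tumor peaks with a −log10 q of 10 or more, and 49.0 in the full list. How far width or q-value sets the gap was not tested.

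**Figure D3:**
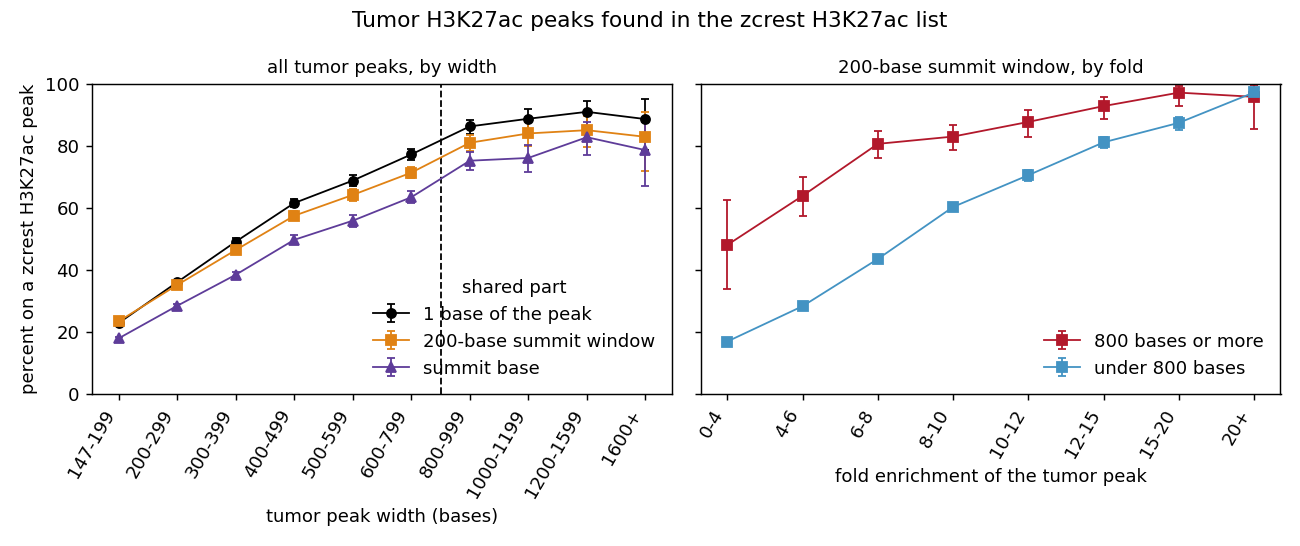
Percent of tumor H3K27ac peaks on a zcrest H3K27ac peak, with exact 95% intervals. Left, all tumor peaks by width, counted by 1 shared base, by a 200-base window at the summit or by the summit base, with a dashed line at 800 bases; right, the window rule by fold enrichment for broad (red) and narrower (blue) peaks, which differ by 35.6 points between folds of 4 and 6 and meet at 20 and above.

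The line peaks under the broad tumor peaks were themselves wider than others. There were 2128 of them, 4.23% of the 50338 line H3K27ac peaks, with a median width of 559 bases. The 21971 line peaks found only under narrower tumor peaks had a median of 393 bases, and the 26239 without any tumor peak 232 bases. In the same order, the line's fold enrichment had medians of 6.47, 5.87 and 4.89. Wide line peaks meet wide tumor peaks by length alone, and this part was not tested.

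A line peak of 800 bases or more lay on 691 broad tumor peaks (42.7%, 40.2% to 45.1%), against 7.61% of the narrower ones and 8.56% of all. The line list was richer in such peaks, 4412 in number or 8.76% of it. The line was also limited to its 1620 widest peaks, of 1107 bases or more. Of the broad tumor peaks 360 (22.2%, 20.2% to 24.3%) met one, against 1901 of the 58140 narrower ones (3.27%). Length itself favours such meetings of wide peaks, and how far it sets these shares was not tested.

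Many broad peaks spanned more than 1 line peak. Exactly 1 line peak lay on 806 broad peaks (49.8%), 2 on 513 (31.7%), 3 on 95 (5.86%) and 4 or more on 4. At least 2 were found on 612 broad peaks (37.8%, 35.4% to 40.2%), against 3.56% of the narrower peaks and 4.48% of all, a count that width itself favours. Where there were 2, the gap between them had a median of 122 bases (114 to 130). The tumor summit lay inside 1 of the 2 in 450 of 513 regions. It was in the one with the higher line fold in 289 of these (64.2%, 59.6% to 68.7%) and in the wider one in 319 (70.9%, 66.5% to 75.0%). The wider one offers more bases for a summit to fall in, so its share is favoured by length itself. Neither share was tested against what the lengths alone would give. The fullest case was the chromosome 10 region starting at 206525, whose 2646 bases held 6 line peaks over 48.4% of its length. Next, with 4 each, were chr16:3932152-3933852, chr14:25276674-25278373 and chr7:27553213-27554539. The fifth by this count, with 3, was the widest region, on chromosome 9.

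Summits of the tumor and of the line tended to lie on the same side of the broad peaks. Where exactly 1 line peak was present and its summit fell inside the tumor peak, both summits lay on the same side of the centre in 530 of 764 broad peaks (69.4%, 66.0% to 72.6%). In the narrower peaks it was 54.5% of 13877. Limited to line peaks that covered at least 90% of the tumor peak, the values were 69.9% of 332 (64.6% to 74.8%) and 54.2% of 5971. The relative positions of the 2 summits had a Pearson correlation of 0.42 across these 764 broad peaks and 0.08 across the narrower ones, given as a description. Summits of narrower peaks lay closer to the centre, where a small shift in bases changes the side. Both measures thus depend on width, and how far width sets the contrast between the groups was not tested. The distance between the tumor summit and the nearest summit of its line peaks had a median of 116 bases in the broad peaks (105 to 131) and 92 bases in the narrower ones. It was 100 bases or less in 46.3% of the broad peaks with a line peak and in 52.8% of the narrower ones.

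No line peak was found on 202 broad peaks (12.5%, 10.9% to 14.2%), against 61.5% of the narrower peaks and 60.2% of all tumor peaks. Their median width, 932 bases (900 to 960), was close to the 956 bases (948 to 966) of the other broad peaks. Their fold enrichment was lower, with a median of 6.94 (6.46 to 7.87) against 9.23 (9.03 to 9.57), and so was their −log10 q, with 22.6 against 41.0. The nearest line peak lay a median of 4450 bases away, from 9 to 291275 bases. For 32 it was within 1 kb, and for 58 (28.7%) it was farther than 12.5 kb. These distances were not compared with those of narrower peaks. The strongest of the 202 was at chr7:69395341-69396382, with a fold of 24.1 and the nearest line peak 62279 bases away. The second, at chr16:27955935-27956850, had a fold of 22.0 and a line peak at 3450 bases. The next 3 had line peaks close by, at 142 to 397 bases. They lay at chr21:44291623-44292462, chr15:8411084-8412317 and chr20:196625-197586, with folds of 18.3, 17.0 and 16.0.

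Sox10, which directs development of neural crest cells and melanocytes, was mapped in the line only. Its peaks touched 0 of 1620 broad tumor peaks, which allows a share of up to 0.185% by the limit of 3 counts in 1620, or 0.227% by the upper end of the exact interval. In all tumor peaks the number was 17 of 59760 (0.0284%), too rare for a difference to be detectable in 1620 peaks.

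Broad peaks stood slightly closer to other tumor peaks than narrower ones did. The gap from edge to edge to the nearest tumor peak had a median of 1106 bases (940 to 1348) in the broad peaks and 1716 bases (1676 to 1756) in the narrower ones. Part of this difference lay below the limit. The median gap was 2019 bases at widths of 147 to 199 bases and 1627.5 at 200 to 299. In the classes from 300 to 799 bases it lay between 1414.5 and 1490, and at 800 to 999 bases it was 1269. A gap under 250 bases was found for 421 broad peaks (26.0%, 23.9% to 28.2%), against 19.2%. No neighbour within 12.5 kb was found for 195 (12.0%, 10.5% to 13.7%), against 15.4%. From summit to summit, which counts the width of the peak as well, the medians were 1852 and 2006 bases and their intervals overlapped. Within 10 kb of the summit lay 3.74 other tumor summits on average, against 3.35. The gap was smaller in the broad peaks in 6 of 8 fold classes. The smallest gap in the tumor list was 52 bases. Peak callers join stretches closer than a set distance, and how far such joining formed the broad peaks was not tested.

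**Figure D4:**
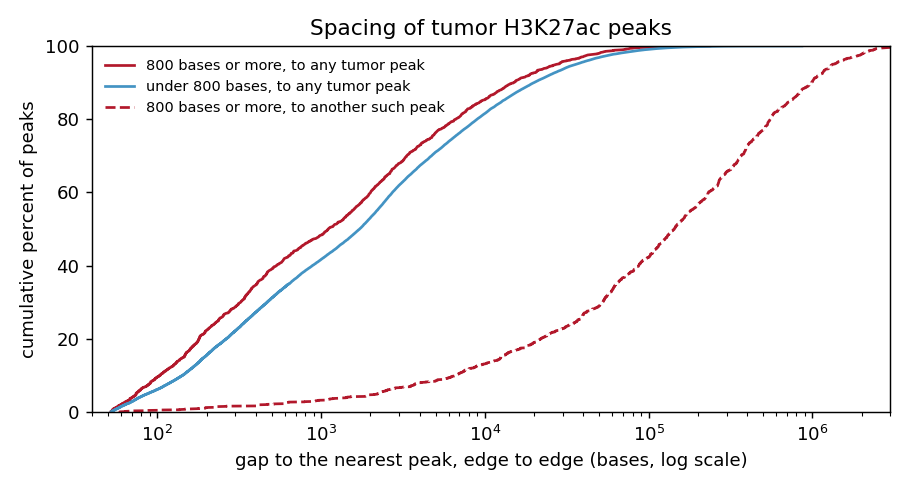
Cumulative percent of tumor H3K27ac peaks against the gap to the nearest peak, edge to edge on a log axis, for broad peaks (red) and narrower ones (blue) to any tumor peak, and for broad peaks to another broad peak (dashed). The medians are 1106, 1716 and 143736 bases.

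The broad peaks were few, at 1.19 per Mb, and their distances from each other reflect that number. The median gap to the nearest other broad peak was 143736 bases (127497 to 159522). Another one lay within 12.5 kb of 241 broad peaks (14.9%, 13.2% to 16.7%) and within 100 kb of 684 (42.2%). Whether these distances differ from those of equally many peaks placed otherwise was not tested. Joining broad peaks at 12.5 kb gave 1379 that stood alone, 98 pairs, 11 runs of 3 and 3 runs of 4. The runs of 4 lay at chr4:21398608-21412391, chr6:11729139-11761191 and chr13:3442197-3463274. The chromosome 4 run packed its 4 broad peaks into 13.8 kb and contained both the tenth widest and the fifth strongest broad peak. Of its 4 broad peaks 3 were on line peaks, as were 2 of 4 on chromosome 6 and 4 of 4 on chromosome 13. The 2 runs of 3 with the most broad bases were both on chromosome 7, at chr7:76772136-76777430 and chr7:34682642-34686490.

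In domains made by joining all tumor peaks at 12.5 kb, broad peaks were scattered over many domains. Of 18985 domains, 1386 (7.30%) held a broad peak, and 1216 of these held exactly 1. Domains of 20 or more peaks contained 315 broad peaks (19.4%, 17.5% to 21.5%), against 17.1% of the narrower peaks. Domains of fewer than 10 peaks contained 990 of the 1620 broad peaks (61.1%), against 65.5%.

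Every one of the 25 chromosomes carried broad peaks, at a density of 1.19 per Mb over a span of 1356 Mb. The density ran from 0.762 per Mb on chromosome 18 to 1.75 per Mb on chromosome 23. It followed the density of tumor peaks as a whole, with a Spearman correlation of 0.85 across the 25 chromosomes of this library. The broad peaks are part of those tumor peaks and both densities use the same span, which by itself favours a high correlation. As a share of the tumor peaks of a chromosome, broad peaks made up 1.84% on chromosome 18 (38 of 2067, 1.30% to 2.51%) at the lowest and 3.29% on chromosome 3 (95 of 2885, 2.67% to 4.01%) at the highest. The intervals of 24 chromosomes included the overall 2.71%, and chromosome 18 fell below it. Among 25 intervals at 95%, counting error alone can leave 1 outside. The largest numbers, 105 and 100, were on chromosomes 7 and 5, which also had the most tumor peaks, 3260 and 3714. Their broad shares were 3.22% (2.64% to 3.89%) and 2.69% (2.20% to 3.27%).

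Sharing with the line was also counted by chromosome. The share of broad peaks on a line peak exceeded that of narrower peaks on all 25 chromosomes. It ran from 71.7% on chromosome 22 (33 of 46, 56.5% to 84.0%) to 95.7% on chromosome 16 (44 of 46, 85.2% to 99.5%), against 26.3% to 45.1% in the narrower peaks. The intervals of 23 chromosomes included the overall 87.5%, and those of chromosomes 22 and 4 lay below it. Among 25 intervals at 95%, counting error alone can leave a few outside. Variation between chromosomes was not tested. On chromosome 4 the share was 75.9% (44 of 58, 62.8% to 86.1%), and its narrower peaks had the lowest share of any chromosome, 26.3%. Of the 58 broad peaks of chromosome 4, 53 started in its first 25 Mb, as did 2237 of its 2500 tumor peaks. Broad peaks were 2.37% of the tumor peaks there (1.78% to 3.09%), and 40 of the 53 were on line peaks. From 25 Mb onward there were 5 broad among 263 tumor peaks (1.90%, 0.620% to 4.38%), and 4 of the 5 were on line peaks.

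**Figure D5:**
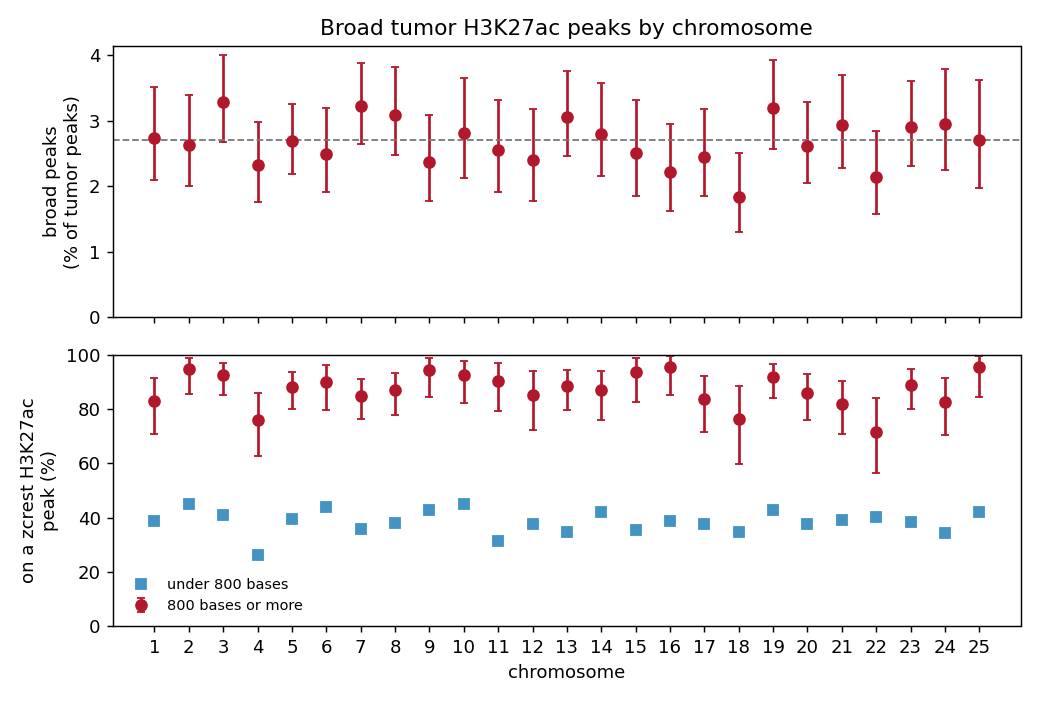
By chromosome, broad peaks as a percent of tumor H3K27ac peaks (top, dashed line at the overall 2.71%) and percent of broad (red) and narrower (blue) tumor peaks on a zcrest H3K27ac peak (bottom), with exact 95% intervals for the broad peaks. Chromosome 18 has the lowest broad share, 1.84%, and broad peaks are above narrower ones in the bottom panel on every chromosome.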

How the data were processed

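Alignment to Zv9 used Bowtie and peak calling used MACS2 version 2.0, per the submitters' processing notes. The sources used here name no control or thresholds. Each ChIP library has 1 peak list from the authors, and pooling is not described. Each deposited list holds −log10 p-values and −log10 q-values, a score, a summit offset and the fold enrichment, which is a ratio over background as the caller estimated it. The deposited score equals the −log10 q times 10, truncated, in every peak. The highest q was 0.0497.

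Widths, gaps, summit positions and overlaps were computed with scipy 1.17.1, pandas 2.3.3 and numpy 2.4.6 under Python 3.11.15, and checked on simulated lists. Chromosome spans end at the last peak of the 3 lists. Overlap means at least 1 shared base unless stated. Shares carry exact Clopper-Pearson 95% intervals, and medians exact order-statistic intervals; both describe counting error within 1 library. No test between conditions was possible with 1 library per group, and depth is unknown.

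Members, comparisons and regions were chosen with earlier results of these data known. Named regions are the 10 widest, the 10 with the highest fold, the 5 of highest fold without a line peak, the 5 with the most line peaks and the 5 fullest runs of broad peaks (ties by width). Broad peaks with sox10 were also to be named, but there were 0. Alternatives covered width limits, q-values and overlap rules. The comparison of line and tumor summits, the counts of line peaks per region and the values by chromosome part were added after the lists had been seen.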

Additional observations from a re-analysis of the deposited data

How the results depend on the processing

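All 10 values came from single libraries, and a value is called unmoved when it stayed inside the 95% interval of the reported one or, for the number of peaks, within 1.5 times. Of 62 alternatives, 7 kept to numbered chromosomes and left the list as it was. Of the other 55, 15 left the value unmoved. The broad peaks numbered 4157 at a width limit of 600 bases, 670 at 1000 and 290 at 1200. Their share on line peaks was 81.2%, 89.4% and 90.3% at these limits, and that of the narrower peaks 36.7%, 39.3% and 39.6%. With 50% of the tumor peak covered the shares were 72.0% and 31.0%, with the summit base inside a line peak 76.5% and 30.6%, and with the 200-base window 82.3% and 37.2%. With 100 bases shared the narrower share was 33.9%. Line peaks with a −log10 q of 5 or more gave 84.9% and 34.7%, and of 10 or more 77.0% and 27.4%. Limiting the tumor list to a −log10 q of at least 5 and at least 10 gave 43.5% and 57.4% for the narrower peaks, so the difference shrank to 31.1 percentage points at 10. The broad share was the higher one in every alternative run.

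The median gap of the broad peaks was 909 bases at a limit of 1000 and 802.5 at 1200, 1852 between summits and 1495 for tumor peaks with −log10 q at least 5. That of the narrower peaks was 2006 between summits and 1973 under the same q limit. The summit's distance from the centre in narrower peaks was 22.3% and 23.1% at limits of 600 and 1200, and 20.9% under the q limit. Another broad peak lay within 5000 bases of 8.52% and within 25000 bases of 21.4%, and within 12.5 kb of 27.8% at a limit of 600 and 5.82% at 1000. The chromosome with the highest broad share was 23 at a limit of 600 (8.08%), 3 at 1000 (1.63%) and 7 under the q limit (4.03%). The lowest was chromosome 22 at 600 (5.49%) and 15 at 1000 (0.628%). The order of chromosomes thus depends on the limit, and it was not tested. No paired analysis was possible because each group holds 1 library.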

Other observations

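The summit of a broad tumor peak leaned slightly towards a close neighbour. Where the nearest tumor peak was less than 250 bases away, the summit lay on the side facing it in 239 of 419 broad peaks (57.0%, exact 95% interval 52.1% to 61.8%), against 51.1% (50.2% to 52.1%) in narrower peaks. At gaps of 250 to 499 bases it was 108 of 212 (50.9%, 44.0% to 57.9%), and at 5000 bases or more 186 of 384 (48.4%, 43.3% to 53.6%). This was 1 of 5 gap classes looked at after the data had been seen, and its interval covers counting error only.

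Along the chromosomes, divided into 10 equal parts, the broad share of tumor peaks ran from 2.17% (123 of 5663, 1.81% to 2.59%) in part 8 to 3.01% (198 of 6578, 2.61% to 3.45%) in part 1. The other 8 parts lay between 2.54% and 2.94%.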
